A study of Mus musculus with 29 samples.

Results

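The 39 genes described here encode lysosomal proteins: hydrolases, membrane proteins, the proton pump and its accessory subunits, and a pair of transcription factors of the lysosomal gene program. They were taken by symbol from the deposited count table, where all 39 were found among 36982 genes, and all 39 passed the filter on low counts that left 16632 genes for testing. The list holds 9 cathepsins, 8 glycosidases, 6 membrane proteins, 6 v-ATPase genes, 4 lipid and thioester hydrolases, 2 other proteases, 2 precursors of hydrolase cofactors and 2 transcription factors.

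The libraries are bulk RNA sequencing of microglia sorted from whole brains of male C57BL/6J mice, gated as DAPI-negative events that were high for CD11b, intermediate for CD45 and negative for Ly6C. Every mouse was injected into the peritoneum at 10 weeks of age and again 5 weeks later, and its brain was taken 3 h after the later injection, at 15 weeks. An injection was saline (P) or 1 mg/kg lipopolysaccharide from Escherichia coli O111:B4 (L, LPS), a bacterial cell wall component that signals through Toll-like receptor 4. Starting 1 week after the first injection, mice were given either BLZ945 (B) by gavage at 169 mg/kg per day for 5 days, or its cyclodextrin vehicle. BLZ945 inhibits CSF1R, a receptor microglia need to survive, and the brain is refilled by new microglia after it is withdrawn. The groups were PP (saline, vehicle, saline; n = 5), PBP (saline, BLZ945, saline; n = 5), PL (saline, vehicle, LPS; n = 4), PBL (saline, BLZ945, LPS; n = 5), LL (LPS, vehicle, LPS; n = 5) and LBL (LPS, BLZ945, LPS; n = 5). No group had LPS at the first injection and saline at the second.

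Lysosomes break down proteins, lipids and sugars with acid hydrolases that work at the low pH set by the v-ATPase, a rotary proton pump. The hydrolases travel from the Golgi along sorting receptors, while membrane proteins such as LAMP1 and LAMP2 shield the lysosomal wall. Many of these genes are switched on together by TFEB and its relative TFE3, which bind a short palindrome around CACGTG, known as the CLEAR element, in promoters. Microglia are the resident phagocytes of the brain and carry large amounts of cathepsin mRNA.

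Total counts per library ranged from 5670450 to 12671476, with a median of 7597841. The 10 microglia markers were all detected in every group and summed to 32600 to 71000 CPM (counts scaled to library size) per library. Sorter and group nearly coincided: PP, PL and 4 of the 5 PBP libraries were sorted on a MoFlo Astrios, and PBL, LL, LBL and PBP replicate 5 on a MoFlo XDP. PBP replicate 5 stood apart from its group, with an RNA quality number of 7.4 and a summed neuron marker level of 193 CPM, the highest of the PBP libraries. Summed neuron markers lay between 13.3 and 45.6 CPM in PP and between 30.5 and 58.9 CPM in PL. On the XDP they lay between 142 and 273 CPM (PBL), 60.4 and 257 CPM (LL), and 105 and 252 CPM (LBL).

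Promoter sequences show how far these genes share the motif of TFEB and TFE3. RefSeq windows for build GRCm38.p6 were available for 35 of the 39 genes, in 43 windows, and the 250 bases upstream of each start were searched on both strands, which are the same for a palindrome. The core CACGTG was present in 12 of the 35 genes (34.3%), against 6.86% of the 27025 genes with a window. The longer TCACGTGA, which contains the core, was present in 5 of 35 (14.3%) against 0.907% of all genes. The longer CLEAR consensus, those 8 bases with 1 set base on either side, was in 0 of 35 against 0.27% of all genes. A match is a description of the letters in the window, not evidence of binding.

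Windows are printed for a pump gene that rose after LPS, for Mcoln1, Lamp1 and Ctsd, which hold several copies of the core, and for Cd63 and Lipa, which changed after LPS and hold none. Each runs 5′ to 3′ on the strand of its gene and ends at the base before the start; capitals mark CACGTG. The windows are Atp6v1a, chr16:44139260-44139509, minus strand; Mcoln1, chr8:3500269-3500518, plus strand; Lamp1, chr8:13158911-13159160, plus strand; Ctsd, chr7:142387828-142388077, minus strand; Cd63, chr10:128909095-128909344, plus strand; and Lipa, chr19:34527475-34527724, minus strand.
Atp6v1a: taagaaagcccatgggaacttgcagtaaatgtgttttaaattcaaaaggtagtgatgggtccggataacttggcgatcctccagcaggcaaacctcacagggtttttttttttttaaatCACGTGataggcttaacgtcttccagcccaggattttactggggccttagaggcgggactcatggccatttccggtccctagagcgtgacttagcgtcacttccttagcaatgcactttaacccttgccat
Mcoln1: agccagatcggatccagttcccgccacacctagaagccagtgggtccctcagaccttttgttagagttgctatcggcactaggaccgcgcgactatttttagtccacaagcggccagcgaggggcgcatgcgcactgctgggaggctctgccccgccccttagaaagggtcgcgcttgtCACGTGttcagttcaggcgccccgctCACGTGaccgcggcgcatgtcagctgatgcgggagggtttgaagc
Lamp1: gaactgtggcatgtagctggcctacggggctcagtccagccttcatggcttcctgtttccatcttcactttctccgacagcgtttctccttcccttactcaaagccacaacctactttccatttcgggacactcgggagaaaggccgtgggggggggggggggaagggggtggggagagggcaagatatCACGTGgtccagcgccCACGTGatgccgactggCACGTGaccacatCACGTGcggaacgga
Ctsd: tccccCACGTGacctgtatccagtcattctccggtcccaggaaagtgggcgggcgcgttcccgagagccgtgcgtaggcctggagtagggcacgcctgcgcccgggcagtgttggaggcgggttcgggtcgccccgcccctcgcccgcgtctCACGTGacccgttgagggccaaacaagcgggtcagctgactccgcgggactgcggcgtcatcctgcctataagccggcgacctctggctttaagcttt
Cd63: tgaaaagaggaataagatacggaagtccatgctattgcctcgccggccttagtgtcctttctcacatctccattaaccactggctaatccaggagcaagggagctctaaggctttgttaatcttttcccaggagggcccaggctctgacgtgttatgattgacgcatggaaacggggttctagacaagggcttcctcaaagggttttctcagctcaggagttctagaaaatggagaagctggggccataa
Lipa: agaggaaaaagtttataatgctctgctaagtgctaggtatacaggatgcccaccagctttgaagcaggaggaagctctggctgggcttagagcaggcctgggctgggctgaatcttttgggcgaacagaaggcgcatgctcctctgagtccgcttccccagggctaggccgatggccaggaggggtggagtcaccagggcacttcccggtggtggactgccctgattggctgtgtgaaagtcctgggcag

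Lamp1, the gene of a major lysosomal membrane glycoprotein, held 4 copies of the core within the 61 bases before its start. Mcoln1, which encodes a lysosomal calcium channel, held 2. Atp6v1a held 1 copy, in the TCACGTGA form, whose core begins 131 bases before the start. None of the 3 Tfeb windows or 3 Atp6v0c windows held the core. After LPS in undepleted mice (PL against PP), the 12 genes with the core and the 23 without it had median log2 fold changes of -0.10 and -0.17. Of these genes 2 and 7 were called, where 26.2% of all genes were. A link between the motif and the response was not tested.

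In undisturbed microglia of the PP group the set spanned a wide range of levels. Per kilobase of exon (lengths from another annotation release than the counts), Ctss, which encodes the elastin-cleaving cathepsin S, led at 9280 CPM per kb. Lgmn, the gene of the asparagine-specific protease legumain, followed at 5420, Ctsd (cathepsin D) at 2880, Ctsz (cathepsin Z) at 2070, Psap (prosaposin, precursor of the sphingolipid activators) at 1860 and Cd68, a macrophage lysosomal membrane protein, at 1440. The lowest were Gla, which encodes alpha-galactosidase A, at 1.22 CPM per kb, Tfeb at 3.12 and Mcoln1 at 5.97. Ctss counts reached 12600 ± 869 CPM in PP (SD, n = 5), whereas Gla stood at 3.97 ± 1.46 CPM on as few as 18 reads per library, so its changes were measured with the least precision.

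The 39 genes together held 6.39% ± 0.222 of all counts in PP (SD, n = 5) and 6.38% ± 0.445 in PBP (n = 5). They held 5.71% ± 0.234 in PL (n = 4), 5.45% ± 0.302 in PBL (n = 5), 5.69% ± 0.217 in LL (n = 5) and 5.99% ± 0.146 in LBL (n = 5). All PP libraries, at 6.06% to 6.65%, lay above all PL libraries, at 5.41% to 5.98%. In bulk RNA, fewer cells of a type and less RNA per cell cannot be told apart.

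**Figure D1:**
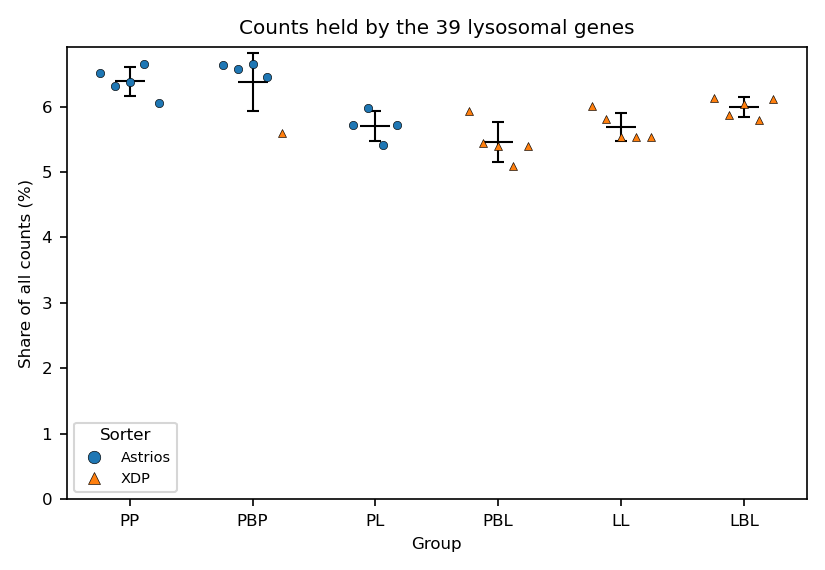
Share of all counts held by the 39 lysosomal genes in each library, in percent, by group; circles were sorted on the Astrios and triangles on the XDP, and bars give the group mean ± SD. The PP libraries lie at 6.06% to 6.65% and the PL libraries at 5.41% to 5.98%, and the single XDP library of PBP lies at 5.60%.

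How did lysosomal genes of microglia respond to a first LPS injection (PL against PP)? A pump and vesicle membrane trio rose and a larger set of hydrolase genes fell slightly, with the transcription factor gene Tfeb falling most. Of the 39 genes, 3 were called higher and 7 lower, by edgeR's quasi-likelihood test at a Benjamini-Hochberg adjusted p under 0.05 over all genes. Over all 16632 genes 26.2% were called, 14.2% higher and 11.9% lower, so the number of calls in the set is close to that of genes at large. The median log2 fold change of the set was -0.17, with 29 of 39 values below 0, against medians between 0 and 0.04 for all genes over the comparisons. The libraries of the 2 groups did not overlap for 3 genes higher and 7 lower in PL, against 11.5% and 10.4% of all genes. Among the 29 genes that were not called, log2 fold changes ran from -0.40 for Smpd1 to 0.58 for Gla.

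Cd63 (ENSMUSG00000025351, chromosome 10) encodes a tetraspanin of late endosomes, lysosomes and exosomes. Its level in PP was 126, 129, 135, 134 and 118 CPM, and in PL 228, 217, 190 and 186 CPM. Every PL library lay above every PP library, and PL exceeded PP by 0.68 on the log2 scale (SE 0.10, adjusted p = 1.51e-06). Atp6v1a encodes the catalytic A subunit of the pump's ATP-splitting V1 part. It stood at 99.7, 105, 106, 96.8 and 89.1 CPM in PP and at 174, 130, 168 and 153 CPM in PL, again with no overlap (log2 fold change 0.65, SE 0.12, adjusted p = 0.000103). Atp6v0c encodes the proton-carrying c subunit of the membrane part. It ranged from 73.5 to 94.1 CPM in PP and from 118 to 130 CPM in PL, also without overlap (0.58, SE 0.12, adjusted p = 0.000196).

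The other 4 pump genes did not pass the test: Atp6v0d1 and Atp6v1b2 had log2 fold changes of -0.24 (SE 0.11) and -0.27 (SE 0.13), and the accessory subunit genes Atp6ap1 and Atp6ap2 had -0.15 (SE 0.10) and 0.19 (SE 0.11). The v-ATPase genes thus split between 2 called higher and 4 with values on both sides of 0.

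Tfeb (ENSMUSG00000023990, chromosome 17) fell most. Its counts were low, at 16.0, 24.5, 12.1, 21.2 and 14.7 CPM in PP and 6.85, 5.35, 8.52 and 4.90 CPM in PL. The groups did not overlap, and the log2 fold change was -1.46 (SE 0.31, adjusted p = 0.000493), a level in PL 0.364 times that in PP. Tfe3, the gene of the related factor, did not pass the test, with a log2 fold change of -0.03 (SE 0.12).

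Lipa encodes lysosomal acid lipase, which frees cholesterol and fatty acids from lipoprotein lipids. It stood at 302, 310, 317, 362 and 271 CPM in PP and at 263, 158, 163 and 185 CPM in PL. Every PL library was below every PP library, although PL replicate 1 was close to them, and the log2 fold change was -0.70 (SE 0.13, adjusted p = 8.63e-05). The other 3 lipid and thioester hydrolase genes, Asah1, Smpd1 and Ppt1, had values of -0.22, -0.40 and -0.14 and did not pass the test.

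Of the 8 glycosidase genes, 3 fell. Man2b1, the gene of lysosomal alpha-mannosidase, stood at 872, 891, 956, 929 and 886 CPM in PP and at 624, 778, 793 and 667 CPM in PL. The groups were apart (log2 fold change -0.34, SE 0.11, adjusted p = 0.0223), but the call was lost without PL replicate 1 (adjusted p = 0.0864) or PL replicate 4 (adjusted p = 0.0621). Naglu, which acts on heparan sulfate, changed by -0.62 (SE 0.16, adjusted p = 0.00325), with overlapping ranges of 109 to 165 CPM in PP and 77.9 to 129 CPM in PL. On the sorting day of PP alone it was not called (-0.42, adjusted p = 0.113). Hexa, the gene of the hexosaminidase alpha chain, changed by -0.36 (SE 0.09, adjusted p = 0.00339). Gaa, Gla, Glb1, Gusb and Neu1 did not pass the test.

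Scarb2 encodes LIMP-2, the membrane protein that carries glucocerebrosidase to lysosomes. It measured 289, 291, 295, 298 and 258 CPM in PP and 243, 173, 242 and 225 CPM in PL, without overlap (log2 fold change -0.37, SE 0.11, adjusted p = 0.0127). The call ended without PL replicate 2 (-0.27, adjusted p = 0.0823). Of the 9 cathepsins, Ctsh (cathepsin H) was called lower at -0.25 (SE 0.09, adjusted p = 0.0436), and that call was lost without any 1 of PP replicates 1 to 4 or PL replicate 2. The highest-expressed cathepsin genes, Ctss and Ctsd, had values of 0.09 (SE 0.10) and -0.11 (SE 0.08). Lamp1 and Lamp2 (0.09 and -0.16) did not pass the test either.

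In this comparison all libraries were sorted on the Astrios. With only the PL libraries sorted on the same day as PP, 17 of the 39 genes were called, 4 higher and 13 lower. That fit held 2 PL libraries, replicates 3 and 4, with RNA quality numbers of 6.5 and 8.4. Its count is not set against genes at large here, so it does not show a stronger response of this set. Among the microglia markers 6 of 10 were called lower in PL, with summed levels of 45700 to 53300 CPM against 59600 to 71000 CPM in PP. No marker of border-associated macrophages (summed 92 to 160 CPM in PL, 56.9 to 121 in PP) or neurons was called, while 2 of 5 monocyte markers and 1 of 7 neutrophil markers were called higher. The part of these markers in the lysosomal changes was not tested. RNA quality numbers were 8.6 to 9.1 in PP and 6.5 to 9.1 in PL.

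**Figure D2:**
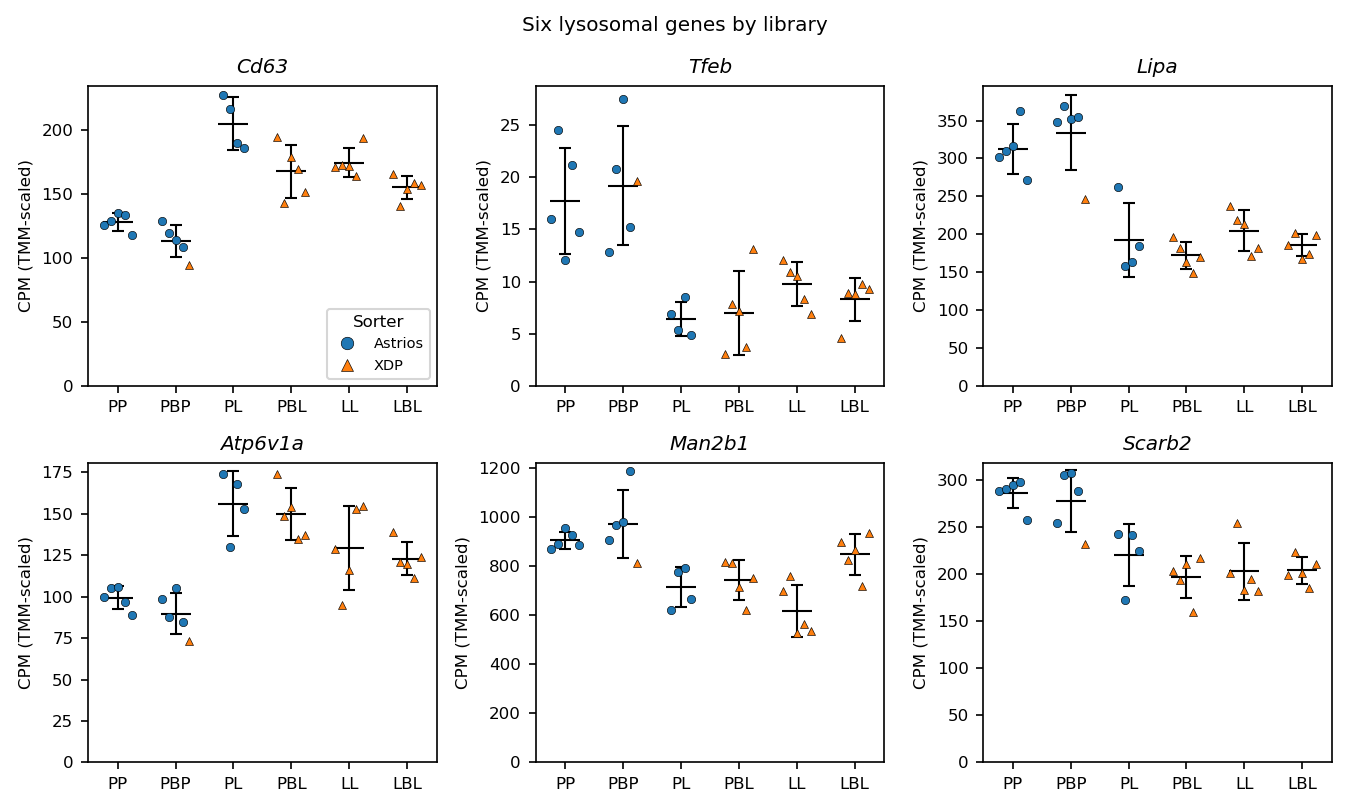
TMM-scaled CPM of Cd63, Tfeb, Lipa, Atp6v1a, Man2b1 and Scarb2 in each of the 29 libraries by group, with group mean ± SD; circles were sorted on the Astrios and triangles on the XDP. Cd63 lies at 118 to 135 CPM in PP and 186 to 228 CPM in PL, whereas Tfeb goes from 12.1 to 24.5 CPM in PP to 4.90 to 8.52 CPM in PL.

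Did microglia that had grown back after BLZ945 respond in the same way (PBL against PBP)? The same trio rose, Tfeb and Lipa again fell most, and more hydrolase genes were called lower. Of the 39 genes, 3 were called higher and 21 lower, where 21.5% of all genes were called higher and 21.5% lower (43.1% in all). The median log2 fold change was -0.31, and 32 of 39 values were below 0. The 2 groups did not overlap for 3 higher and 2 lower genes, against 12.5% and 11.6% of all genes.

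Cd63 stood at 129, 120, 114, 109 and 94.9 CPM in PBP and at 195, 143, 179, 170 and 152 CPM in PBL. All PBL libraries were above all PBP libraries (log2 fold change 0.56, SE 0.09, adjusted p = 9.23e-06). Atp6v1a went from 98.7, 87.6, 105, 84.8 and 73.0 CPM to 174, 149, 154, 135 and 137 CPM, without overlap (0.73, SE 0.12, adjusted p = 5.28e-06). Atp6v0c ranged from 65.9 to 99.0 CPM in PBP and from 112 to 133 CPM in PBL (0.47, SE 0.11, adjusted p = 0.000762).

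Tfeb stood at 12.8, 20.8, 27.5, 15.2 and 19.6 CPM in PBP and at 3.05, 7.82, 7.14, 3.72 and 13.1 CPM in PBL. PBL replicate 5 reached into the PBP range and the other 4 lay below it; the log2 fold change was -1.44 (SE 0.29, adjusted p = 0.000142). Lipa went from 348, 369, 352, 355 and 247 CPM to 196, 182, 164, 149 and 170 CPM, with no overlap (-0.96, SE 0.12, adjusted p = 1.07e-07). Scarb2 went from 255, 306, 308, 289 and 232 CPM to 204, 194, 211, 160 and 217 CPM, also apart (-0.50, SE 0.11, adjusted p = 0.000305). Man2b1 went from 909, 967, 983, 1190 and 815 CPM to 816, 815, 714, 620 and 752 CPM, and the groups met at their edges (-0.39, SE 0.11, adjusted p = 0.00362).

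By kind of protein, all 4 lipid and thioester hydrolase genes and both other protease genes were called lower, as were 5 of 8 glycosidases, 3 of 9 cathepsins and 3 of 6 membrane proteins. Ctsc, whose product cathepsin C activates granule proteases of leukocytes, changed by -0.64 (SE 0.12, adjusted p = 4.53e-05). Smpd1, the gene of acid sphingomyelinase, changed by -0.55 (SE 0.16, adjusted p = 0.00476). Of the pump genes, 2 rose and 3 fell, the latter being Atp6v0d1 (-0.53, SE 0.11), Atp6v1b2 (-0.48, SE 0.12) and Atp6ap1.

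Sorter, sorting day and RNA quality were split in the same way. All PBL libraries and PBP replicate 5 were sorted on the XDP on day 3, with RNA quality numbers of 7.4 to 7.9 in PBL and 7.4 in that PBP library. The other 4 PBP libraries were sorted on the Astrios on day 4, with numbers of 8.8 to 9. For Atp6v0d1, picked after its values were seen, the Astrios libraries of PBP held 240, 222, 226 and 207 CPM, the XDP library of PBP held 141 CPM, and PBL held 150, 158, 148, 134 and 130 CPM. With the sorter as a term in the fit, 6 of the 39 genes were called, 5 higher and 1 lower. Over all 16632 genes that fit called 1230 higher and 994 lower. Cd63 (log2 fold change 0.82, SE 0.16, adjusted p = 0.000384), Atp6v0c (0.89, SE 0.19, adjusted p = 0.000739) and Atp6v1a (1.03, SE 0.21, adjusted p = 0.000568) stayed called higher and Tfeb lower (-1.47, SE 0.45, adjusted p = 0.0252). Lipa was no longer called (-0.52, adjusted p = 0.0583), nor was Scarb2 (-0.23, adjusted p = 0.455), and the median of the set moved from -0.31 to 0.03. That fit compares sorters through PBP replicate 5 as the only library that links them within a group. The parts of sorter, day and RNA quality cannot be told apart.

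The sorter term is in effect PBP replicate 5 against the other 4 PBP libraries: 36 of the 39 genes were lower in that library, with a median log2 difference of -0.42. It describes 1 library and does not separate its sorter from its day, its RNA quality or its neuron markers. Neuron markers rose in PBL (9 of 10 tested), as did 6 of 9 astrocyte, 3 of 5 monocyte and 3 of 7 oligodendrocyte markers and the neutrophil markers (7 of 7 tested; summed 127 to 484 CPM, against at most 35.1 CPM in any library of the other groups). Called lower were 1 astrocyte, 1 monocyte and 1 oligodendrocyte marker. The microglia markers, summed at 32600 to 46200 CPM in PBL and 48100 to 66800 CPM in PBP, were called lower for 8 of 10. The part of these markers in the lysosomal changes was not tested.

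**Figure D3:**
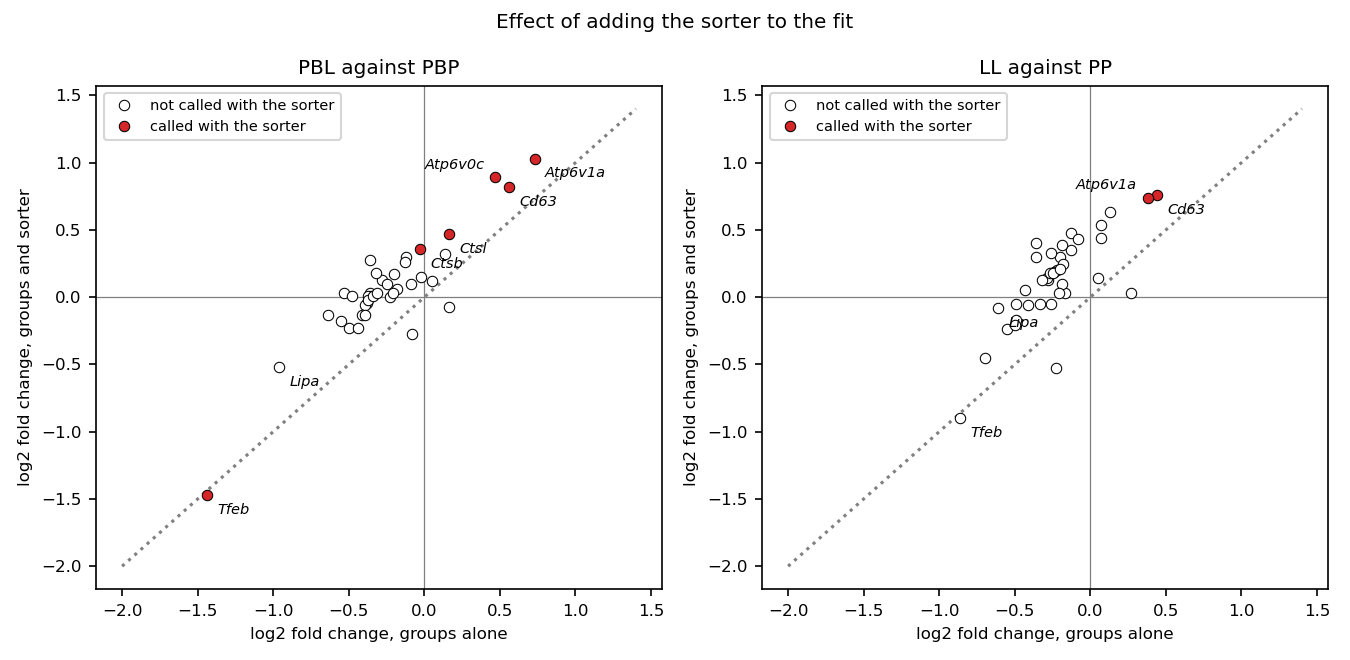
Log2 fold changes of the 39 genes without (horizontal) and with (vertical) the sorter in the fit, for PBL against PBP and LL against PP; filled points are called with the sorter and the dotted line marks equal values. Cd63 and Atp6v1a lie above 0 on both axes in both plots, while most genes below 0 on the horizontal axis move up to around 0 on the vertical axis.

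The responses with and without depletion use no common library. Across the 39 genes, which are not independent replicates, their log2 fold changes had a Pearson correlation of 0.91 and a Spearman correlation of 0.88, with 34 of 39 of the same sign. Over all 16632 genes the Pearson correlation was 0.75 and 77.6% had the same sign. The test of the difference between the 2 responses called 0 of the 39 genes (0% of all genes) with edgeR; 2 had an unadjusted p under 0.05, against 2120 of all 16632 genes, and both DESeq2 and limma voom called 0 of the 39. Those 2 genes were Ctsc, with a difference of -0.41 (SE 0.17, adjusted p = 0.328), and Atp6ap2, with -0.32 (SE 0.15, adjusted p = 0.362). The difference was -0.11 (SE 0.14) for Cd63, 0.08 (SE 0.17) for Atp6v1a, -0.26 (SE 0.18) for Lipa and 0.02 (SE 0.42) for Tfeb, and the difference for Tfeb was the least precise of these. With the sorter in the fit the median difference of the set moved from -0.12 to 0.21, Ctsc stood at 0.10, Atp6ap2 at 0.07, Lipa at 0.18 and Cd63 at 0.15. That fit called none of the 39 genes for this difference and 0 of all genes. Without PBP replicate 5, 2 genes were called for this difference, Ctsc (-0.54, adjusted p = 0.0413) and Atp6v0d1 (-0.42, adjusted p = 0.0489). These 2 calls are not set against genes at large in that fit, so they do not show a difference particular to this set.

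**Figure D4:**
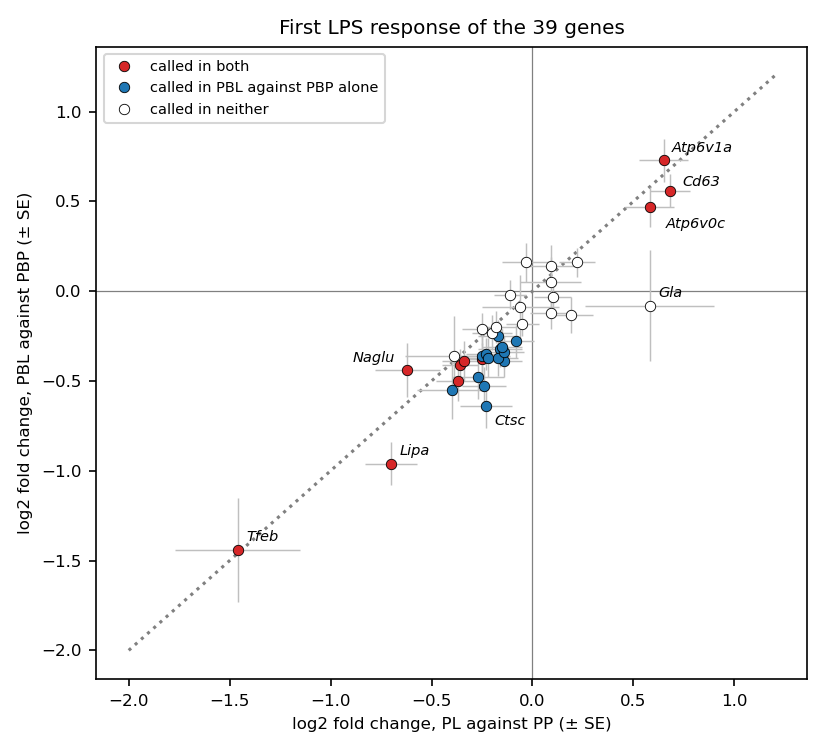
Log2 fold change of each of the 39 genes in PBL against PBP (vertical) plotted against PL against PP (horizontal), with SE bars and the line of equality dotted. Cd63, Atp6v1a and Atp6v0c lie at the upper right, Tfeb and Lipa at the lower left, and the Pearson correlation across genes is 0.91.

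Did an earlier LPS injection change the levels seen after a later one (LL against PL)? With no group given LPS and then saline, a changed response and a changed level before the later injection cannot be told apart. Of the 39 genes, 0 were called higher and 1 lower, where 0.752% and 2.03% of all genes were (2.78% in all). That gene was Atp6v0c, at 99.0, 106, 69.0, 76.2 and 99.7 CPM in LL against 118, 123, 121 and 130 CPM in PL. All LL libraries were below all PL libraries (log2 fold change -0.45, SE 0.12, adjusted p = 0.0239). The call was lost without PL replicate 1, 3 or 4 or LL replicate 3 or 4. Among genes that did not pass, Tfeb was at 12.1, 10.9, 10.5, 8.30 and 6.90 CPM in LL, overlapping the PL values (0.60, SE 0.31, adjusted p = 0.351), and Cd63 was at 171, 173, 172, 164 and 194 CPM (-0.23, SE 0.10, adjusted p = 0.228). All LL libraries came from the XDP and all PL libraries from the Astrios, so sorter and earlier LPS cannot be told apart within these 2 groups. With the sorter in the fit over all groups, Atp6v0c had a log2 fold change of 0.05.

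In the depleted mice (LBL against PBL), all sorted on the XDP, 1 gene was called higher and 1 lower, where 2.74% and 4% of all genes were (6.74% in all). Ctsc was higher, at 1380 to 1650 CPM in LBL against 941 to 1420 CPM in PBL (log2 fold change 0.46, SE 0.12, adjusted p = 0.0133). Tfe3 was lower, at 137 to 199 CPM against 181 to 217 CPM (-0.39, SE 0.11, adjusted p = 0.0238). Both pairs of ranges overlapped, and both calls were lost without PBL replicate 4. Tfe3 also lost its call without PBL replicate 5 or any 1 of LBL replicates 1 to 3, and Ctsc without LBL replicate 4. Atp6v1a stood at 139, 121, 120, 111 and 124 CPM in LBL (-0.28, SE 0.12, adjusted p = 0.159), and Cd63 at 166, 141, 154, 159 and 157 CPM (-0.11, SE 0.09, adjusted p = 0.591). PBL was sorted on another day than LBL, and the neutrophil markers were called lower in LBL (7 of 7 tested); the part of either was not tested.

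The difference between these 2 contrasts was called for 0 of the 39 genes with edgeR, against 0.0241% of all genes. At an unadjusted p under 0.05 there were 7, against 2417 of all 16632 genes, and DESeq2 and limma voom called 0. Man2b1 had the smallest p (difference 0.40, SE 0.15, adjusted p = 0.245). With the sorter in the fit its difference was 0.09 (adjusted p = 0.987), and the median of the set moved from 0.20 to -0.22. The contrasts compare LBL with PBL on 1 sorter and LL with PL across sorters.

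Mice with LPS at both injections were also set against saline controls. Cd63 and Atp6v1a were called higher, and Tfeb, Lipa, Scarb2, Hexa, Cd68, Tpp1 and Ctsf lower, in both arms. The PP libraries are shared with the first comparison, so the values are given side by side and not as independent support. In LL against PP, 2 genes were called higher and 19 lower, against 18.9% and 13.2% of all genes (32.1% in all). LL and PP did not overlap for 1 gene higher and 10 lower, against 12.5% and 9.83% of all genes. Cd63 was at 0.44 on the log2 scale (SE 0.09, adjusted p = 0.000419) and Atp6v1a of 0.38 (SE 0.12, adjusted p = 0.0127), but LL replicate 2, at 94.9 CPM of Atp6v1a, fell within the PP range; the other LL values were 129, 116, 153 and 155 CPM. Tfeb was at -0.86 (SE 0.28, adjusted p = 0.0179). The Tfeb call was lost without PP replicate 2 (adjusted p = 0.066) or LL replicate 5 (adjusted p = 0.0571), and the Atp6v1a call without LL replicate 4 (adjusted p = 0.0514) or LL replicate 5 (adjusted p = 0.0572).

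Lipa stood at 237, 219, 214, 172 and 182 CPM in LL, below every PP library (-0.61, SE 0.12, adjusted p = 0.000242). Man2b1 stood at 698, 761, 529, 564 and 535 CPM, also below PP (-0.55, SE 0.11, adjusted p = 0.00013). Scarb2 was at 201, 255, 183, 195 and 182 CPM, with LL replicate 2 just under the PP range (-0.49, SE 0.11, adjusted p = 0.00057). Both cofactor precursor genes were called lower here, among them Grn, which encodes progranulin, a secreted protein cleaved to granulins in lysosomes (-0.50, SE 0.09, adjusted p = 0.000125). The number called was 12 without LL replicate 5. With the sorter in the fit, 2 genes were called, Cd63 (0.76, adjusted p = 0.00708) and Atp6v1a (0.74, adjusted p = 0.0483). Over all 16632 genes that fit called 796 higher and 385 lower. Tfeb then had -0.90 (adjusted p = 0.38) and Lipa -0.08 (adjusted p = 0.89). Of the markers tested, 10 of 10 neuron, 5 of 9 astrocyte and 4 of 7 oligodendrocyte markers were called higher in LL. Called lower were 7 of 10 microglia markers, 1 astrocyte marker and 1 oligodendrocyte marker. The part of these markers was not tested.

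In LBL against PBP, 2 genes were called higher and 8 lower, against 14.6% and 13.6% of all genes (28.2% in all). LBL and PBP did not overlap for 2 genes higher and 3 lower, against 8.57% and 8.46% of all genes. Cd63 and Atp6v1a were each at 0.45 (SE 0.09 and 0.12, adjusted p = 0.000312 and 0.00382), and every LBL library was above every PBP library for both. Lipa, at 186, 202, 168, 174 and 199 CPM in LBL, was at -0.85 (SE 0.12, adjusted p = 1.68e-06), and Tfeb, at 4.58, 8.94, 8.84, 9.77 and 9.26 CPM, at -1.20 (SE 0.29, adjusted p = 0.00157). Scarb2, at 199, 224, 201, 186 and 211 CPM, was at -0.45 (SE 0.11, adjusted p = 0.00163). Each of Lipa, Tfeb and Scarb2 stood below its lowest PBP library in all LBL libraries. Without PBP replicate 5 the count was 20, 2 higher and 18 lower. That count is not set against genes at large here, so it does not show a stronger response of this set. With the sorter in the fit 4 genes were called, all higher: Cd63 (0.71), Atp6v1a (0.75), Atp6v0c (0.67) and Ctsb (0.38). Over all 16632 genes that fit called 945 higher and 664 lower. Tfeb then stood at -1.23 (adjusted p = 0.0851) and Lipa at -0.41 (adjusted p = 0.184). In LBL 6 of 10 neuron markers tested were called higher, and 7 of 10 microglia and 4 of 8 border-associated macrophage markers lower; their part was not tested.

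Did depletion and regrowth alone leave a mark on these genes (PBP against PP)? None of the 39 was called with edgeR, where 0.529% of all genes were; 2 had an unadjusted p under 0.05, DESeq2 called 1 and limma voom 0. The nearest was Ctsh, at 1040 to 1440 CPM in PBP and 977 to 1120 CPM in PP (log2 fold change 0.33, SE 0.09, adjusted p = 0.0694), which was called without PBP replicate 5 (0.40, adjusted p = 0.00942). Cd63 and Tfeb had values of -0.18 (SE 0.09) and 0.11 (SE 0.28).

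After LPS, regrown and undepleted microglia differed in 8 of the 39 genes (PBL against PL), 1 higher and 7 lower, where 11% and 11.1% of all genes were called (22.1% in all). Atp6v0d1, which encodes the d subunit at the pump's central stalk, had the largest change. It stood at 229, 219, 196 and 203 CPM in PL, above all PBL libraries (log2 fold change -0.56, SE 0.11, adjusted p = 0.00107). Ctsd was the gene called higher (0.22, SE 0.08, adjusted p = 0.0443). Scaling by DESeq2's size factors gave 2 higher and 5 lower. With the sorter in the fit 0 of the 39 genes were called and the median of the set moved from -0.12 to 0.27. Over all 16632 genes that fit called 0 higher and 3 lower, so the 0 is not particular to this set. Sorter and depletion cannot be told apart between these groups, each of which came from 1 sorter. The count ran from 1 without PL replicate 1 to 14 without PL replicate 3, the library with the lowest RNA quality. Border-associated macrophage markers (7 of 8 called lower) summed to 18.3 to 36.6 CPM in PBL and 92 to 160 CPM in PL. Of the microglia markers 6 of 10 were called lower, whereas 10 of 10 neuron, 7 of 7 neutrophil, 6 of 9 astrocyte and 4 of 7 oligodendrocyte markers tested were called higher. Another 2 astrocyte markers and 1 oligodendrocyte marker were called lower. Summed astrocyte markers were 1050 to 1360 CPM in PBL and 1230 to 1560 CPM in PL. The part of these markers was not tested.

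After 2 LPS injections (LBL against LL, both on the XDP), Man2b1 was called higher in the depleted arm, at 900, 825, 865, 719 and 936 CPM in LBL (log2 fold change 0.46, SE 0.11, adjusted p = 0.0211). It was 1 of 39 genes, where 0.487% of all genes were called higher and 0.722% lower (1.21% in all). LBL replicate 4 lay within the LL range, and the call was lost without LL replicate 3, 4 or 5 or LBL replicate 1 or 5. None of the other 7 glycosidases passed the test; Naglu had 0.49 (SE 0.15, adjusted p = 0.0966) and Gaa, the gene of the glycogen-digesting acid alpha-glucosidase, 0.52 (SE 0.18, adjusted p = 0.17). With days of sorting split 4 to 1 between these groups, no day gave a comparison of its own. Of 8 border-associated macrophage markers 7 were called lower, summed at 12.2 to 24.7 CPM in LBL and 56.8 to 96.8 CPM in LL, and their part was not tested.

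**Figure D5:**
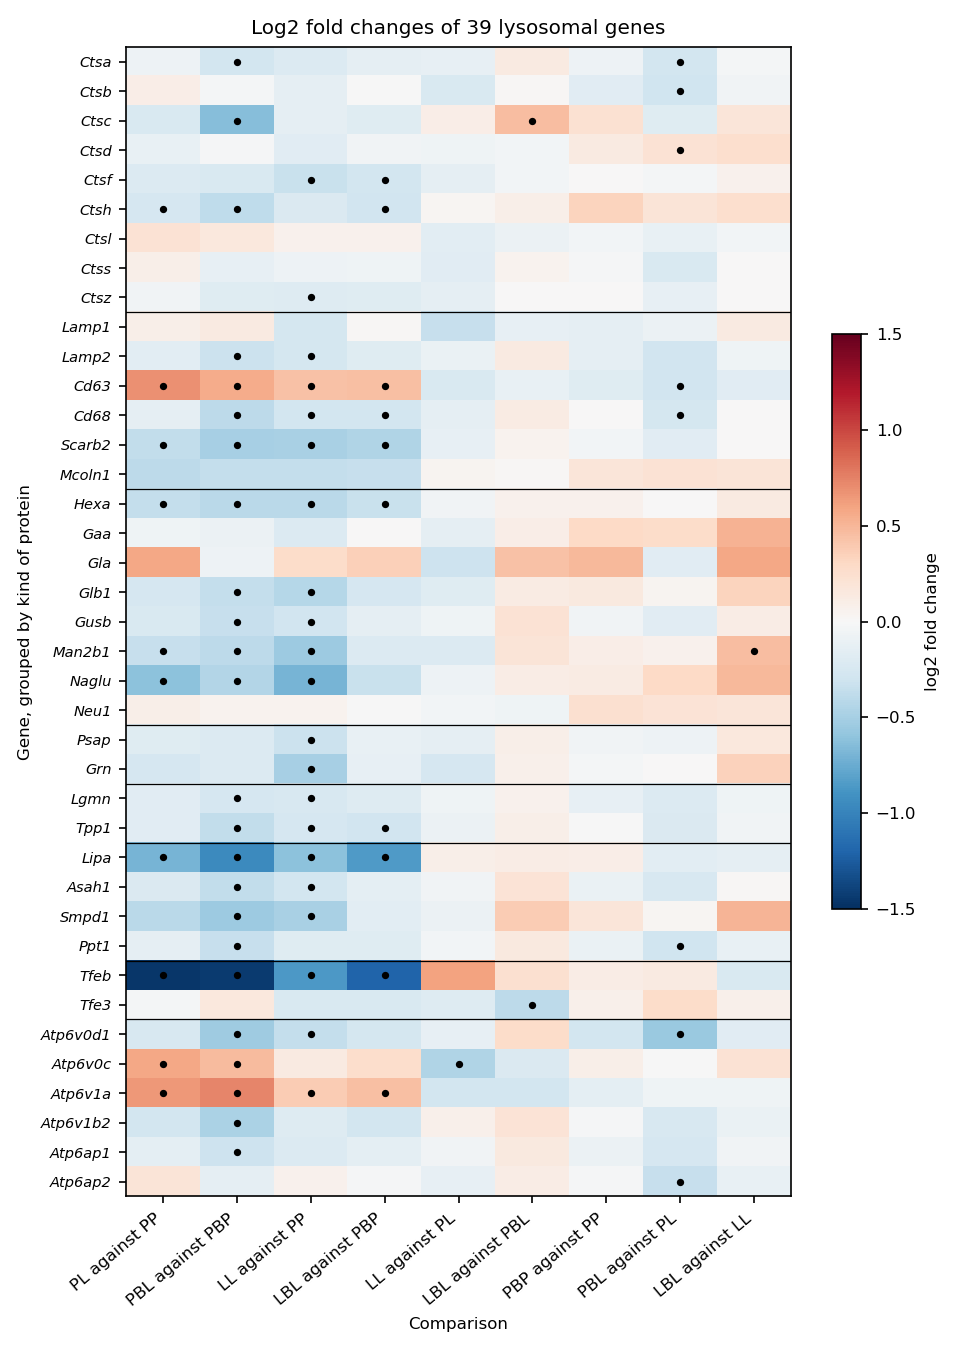
Log2 fold change of the 39 genes (rows, grouped by kind of protein) in 9 comparisons of 2 groups (columns); red is higher and blue lower in the first-named group, and a black dot marks an adjusted p under 0.05. Cd63 and Atp6v1a are red and Tfeb, Lipa, Scarb2 and Hexa are blue with dots in the 4 columns that set an LPS group against saline, and the other 5 columns carry 12 dots in all.

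Other genes of the pathway, from lists outside the 39, moved in mixed directions in PL against PP, where 14.2% of all genes were called higher and 11.9% lower. In PBL against PBP, with 21.5% called in each direction, the list counts come from the fit without the sorter, and their dependence on it was not tested. Of 14 other v-ATPase subunit genes tested, 1 rose and 1 fell. Atp6v0a1, an a subunit isoform gene, went from a mean of 107 CPM in PP to 267 in PL (log2 fold change 1.31, SE 0.14, adjusted p = 5.82e-09), whereas Tcirg1, the gene of the a3 isoform used by osteoclasts, went from 214 to 141 CPM (-0.60, SE 0.14, adjusted p = 0.00116). In PBL against PBP the same 2 genes had 1.42 (SE 0.14) and -0.72 (SE 0.13), and 1 of the 14 rose and 5 fell.

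Of 30 other membrane proteins and transporters, 2 rose and 8 fell in PL against PP, and 1 rose and 14 fell in PBL against PBP. Mcoln2, a sister channel gene of Mcoln1, had 0 counts in all 5 PP and all 5 PBP libraries, which allows up to 0.0752 and 0.0719 CPM (3 counts over the group, counting error only). It had 5 to 51 counts per library in PL and 8 to 69 in PBL. Pooled over each group on unscaled totals, it stood at 3.27 CPM in PL and 4.82 CPM in PBL. These are 43.5 times the PP limit and 67 times the PBP limit. The spread among LPS libraries does not enter these ratios, so single libraries can lie lower. Slc29a3, a lysosomal nucleoside transporter gene, went from 659 to 328 CPM in PL against PP (adjusted p = 1.73e-07) and from 737 to 275 CPM in PBL against PBP. Tpcn1, the gene of a 2-pore endolysosomal cation channel, went from 49.3 to 12.1 CPM (-2.03, SE 0.26, adjusted p = 1.23e-07).

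The genes that relay nutrient state to TFEB included 2 that rose and 7 that fell of 20 in PL against PP. Flcn, the gene of folliculin, which acts on the Rag GTPases at the lysosomal surface, fell from 140 to 55.7 CPM (-1.34, SE 0.24, adjusted p = 5.57e-05). Its partner gene Fnip2 fell from 25.1 to 10 CPM (-1.32, SE 0.24, adjusted p = 4.8e-05). Tfec, a member of the same transcription factor family, was called higher from a low level (0.748 to 3.22 CPM, 2.08, SE 0.75, adjusted p = 0.0378). In PBL against PBP 2 rose and 10 fell, with Flcn at -1.88 (SE 0.22) and Fnip2 at -1.70 (SE 0.22). In LBL against PBL 3 rose and 0 fell, among them Flcn (0.74, SE 0.22, adjusted p = 0.0404) and Fnip1 (0.44, SE 0.12, adjusted p = 0.0238).

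Of 16 sorting genes, 3 rose and 5 fell in PL against PP. Cln8, which encodes a carrier of newly made hydrolases from the endoplasmic reticulum to the Golgi, changed from 153 to 33.8 CPM (-2.18, SE 0.17, adjusted p = 1.95e-12), and by -2.36 (SE 0.16, adjusted p = 3.9e-14) in PBL against PBP. Ap3b1, an adaptor gene of lysosomal membrane protein traffic, went from 91 to 163 CPM (0.84, SE 0.11, adjusted p = 3.73e-07). Of 29 other hydrolases and cofactors 0 rose and 4 fell in PL against PP, and 2 rose and 12 fell in PBL against PBP; Pla2g15, a lysosomal phospholipase gene, had -0.52 (SE 0.13) and -0.69 (SE 0.12). Of 22 autophagy genes 3 rose and 5 fell, and 3 rose and 6 fell; Optn, the gene of the autophagy receptor optineurin, had 1.24 (SE 0.38) and 1.30 (SE 0.36). None of 3 cystatin genes, which encode cathepsin inhibitors, was called in either comparison, and 1 of 3 other cathepsins, Ctso, fell in both (-0.42, SE 0.12, and -0.56, SE 0.11).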

How the data were processed

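The authors deposited whole-number read counts per gene, not normalized, for 29 libraries of sorted mouse microglia, and a table with sorter, sorting day and RNA quality number, a score that the authors recorded. FastQC 0.11.9, cutadapt 2.10, TopHat, SAMtools 1.10, Picard 2.13.2, HTSeq 0.11.0 and GRCm39 are named in the submitters' processing notes, without role or order; the sources used here give neither annotation release nor strand setting, so reads of overlapping antisense genes cannot be told apart. Genes without an Ensembl identifier held 1.29% of counts and were kept.

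Counts were analysed with edgeR 4.0.16 in R 4.3.3: filterByExpr, TMM scaling, and a robust quasi-likelihood fit of all 29 libraries with 1 coefficient per group and 23 residual degrees of freedom. P-values are two-sided, with Benjamini-Hochberg adjustment over 16632 genes per comparison, and genes under 0.05 were called. The biological coefficient of variation was 0.26. CPM values use TMM-scaled totals. Alternatives were DESeq2 1.42.0, limma 3.58.1 voom, other scaling, no filter, only the groups compared, the sorter or the replicate number in the fit, 1 sorter or 1 day alone, and each library left out. Over 56 pairs of libraries within groups, chi-square per degree of freedom was 5.47 to 32.45, so none counted as a duplicate.

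The 39 genes and the pathway lists were chosen with earlier results of these data known. Of the members called, those with the largest log2 fold changes in each direction were named and followed through the alternatives. Every library's value was given for the 6 called in the most comparisons. Atp6v0c and Atp6v0d1 values per library were added after seeing them. Nothing beyond 1 sample per label describes the animals, and p-values therefore reflect only variation among these libraries, which may be technical.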

Additional observations from a re-analysis of the deposited data

Results flagged for a closer look

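In 5 of 42 sets of values (the 6 genes shown by library, and the share of counts of the 39 genes, in each group), 1 library lay far from the rest of its group by Dixon's test; chance gives about 1 in 20 sets. The lowest library for Lipa in PBP was replicate 5, at 247 CPM against 348 to 369 CPM in the other 4. The same library held the lowest share of counts in the 39 genes, 5.6% against 6.45% to 6.65%. It was the PBP library sorted on the XDP. Tfeb was lowest in LBL replicate 1, at 4.58 CPM against 8.84 to 9.77 CPM. Scarb2 was lowest in PP replicate 5, at 258 CPM against 289 to 298 CPM, and highest in LL replicate 2, at 255 CPM against 182 to 201 CPM.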

How the results depend on the processing

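The 57 fold changes of called and named genes gave 996 values under the alternatives. Of these, 838 kept direction and call, 139 kept direction without the call and 19 changed sign. Called genes with smaller changes in PBL against PBP and LL against PP are not among the 57. With limma voom and with the replicate block all 57 kept both. Counts of called genes among the 39 that moved by over 1.5 times were as follows. Neither they nor the counts with 1 library left out, given below, are set against genes at large under the same setting. They therefore do not show whether this set moved more than other genes. PBP against PP gave 1 with DESeq2, other scaling, the sorter in the fit, the replicate block or the Astrios alone. LBL against LL gave 6 with DESeq2, 3 with other scaling, 2 with the sorter and 2 with the replicate block. PBL against PL gave 5 without a filter, 1 with only the groups compared and 0 with the sorter. LL against PL gave 0 with only the groups compared or the sorter. PBL against PBP gave 6 with the sorter or the XDP alone. LL against PP gave 2 with the sorter. LBL against PBP gave 4 with the sorter and 3 with the XDP alone. PL against PP gave 17 on 1 sorting day. With the XDP alone the saline side was a single library, whose spread was taken to be that of other groups.

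Leaving out 1 library at a time gave 9 to 11 called genes in PL against PP and 22 to 29 in PBL against PBP. It gave 0 to 2 in LL against PL, 0 to 2 in LBL against PBL and 0 to 1 in PBP against PP. PBL against PL gave 1 to 14, LBL against LL 0 to 4, LL against PP 12 to 23 and LBL against PBP 7 to 20. The difference of the 2 first responses gave 0 to 2, and that between LBL against PBL and LL against PL gave 0 to 0.

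Some of the 57 log2 values changed sign with the sorter in the fit. They were Atp6v0d1 0.03 and Atp6v1b2 0.01 in PBL against PBP, and Atp6v0c 0.05 in LL against PL. In PBL against PL they were Atp6v0d1 0.11, Atp6ap2 0.13, Ctsb 0.17, Ppt1 0.12, Cd63 0.02, Ctsa 0.22 and Cd68 0.15. In LL against PP they were Glb1 0.05 and Atp6v0d1 0.3, and in LBL against PBP Ctsh 0.05, Tpp1 0.07 and Cd68 0.06. With the XDP alone they were Atp6v0d1 0 in PBL against PBP and Ctsh 0.04, Tpp1 0.06 and Cd68 0.04 in LBL against PBP. Called genes outside the 57 also changed sign with the sorter in the fit. In PBL against PBP these were Ctsa, Lamp2, Glb1, Gusb, Lgmn, Asah1, Ppt1 and Atp6ap1, while Ctsh, Man2b1 and Tpp1 stayed below 0. In LL against PP these were Ctsz, Lamp2, Cd68, Gusb, Psap, Lgmn, Asah1 and Tpp1, while Ctsf stayed below 0. The cause was not tested.

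Replicate numbers did not pair the libraries: same-numbered libraries of 2 groups had correlations of deviations from -0.31 to 0.37 (median 0.01), and 27 of 140 pairings of a library with another group were highest for its own number. With the number as a block, PL against PP gave 15 called genes. Depth limited Gla and Tfeb most.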
